A study of Mus musculus with 48 samples.

Results

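The comparison described here is that of TdTomato+ with TdTomato- endothelial cells of muscle at postnatal day 6 (P6), 10 of the 48 libraries of a mouse RNA sequencing study of sorted endothelium. The 5 TdTomato+ and 5 TdTomato- libraries were taken by the group names in the labels, and libraries with the same number, 1 to 5, were fitted as pairs. The labels give the numbers but do not say that same-numbered libraries share an animal. All animals carried Abcg2CreERT, a tamoxifen-inducible Cre recombinase driven from the Abcg2 locus, and ROSATdTomato, a Cre-dependent red fluorescent reporter. Mice of both groups had received 50 mg/kg tamoxifen by intraperitoneal injection 24 h before the tissue was collected. Endothelial cells were sorted as CD31+, CD45- and Ter119-, and the red fluorescence separated the groups. The labels give no sex and do not say whether a replicate was 1 animal or a pool, and the p-values then speak only of how far these libraries vary, which can include technical variation.

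Abcg2 encodes a membrane transporter that pumps drugs and metabolites out of cells, and its activity has long been used to find stem and progenitor cells. Cre recombinase acts in cells in which the Abcg2 locus is active around the time of tamoxifen, and their descendants keep the fluorescence. Recombination by such alleles is often incomplete, so that cells without fluorescence can include cells with an active Abcg2 locus. In muscle, blood endothelium is divided into arteries, a large capillary bed that takes up fatty acids, and veins, with lymphatic vessels beside them. Leukocytes leave the blood through venules, and the high endothelial venules of lymph nodes are the specialised form, with sulphated and fucosylated ligands for L-selectin on their surface.

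The 10 libraries held 18845648 to 25545504 counts over 15569 listed genes, and 14197 to 14813 genes had at least 1 count in a library. The RNA integrity number was 8.3 to 10 in TdTomato+ libraries and 9.3 to 9.9 in TdTomato- libraries, a mean difference of -0.34 between pairs (exact sign-flip test over 5 pairs, two-sided p = 0.3125, with 0.063 the smallest p that 5 pairs allow). The endothelial label held in the data. Of 22 pan-endothelial markers, 21 or 22 were at 10 CPM or more in each library (CPM, a gene's counts scaled to a common library size with edgeR's TMM), and their summed level was 22648 to 23509 CPM in TdTomato+ libraries and 21600 to 23125 CPM in TdTomato- libraries. Ddx3y, a Y-linked gene, was at 57.6 to 103 CPM and Xist at most at 0.254 CPM over the 10 libraries, the pattern of male cells. Summed muscle fibre markers were at 691 to 1082 CPM in TdTomato+ and 571 to 1218 CPM in TdTomato- libraries, and summed fibroblast markers at 963 to 1976 CPM in TdTomato+ and 708 to 1795 CPM in TdTomato- libraries. Of the leukocyte markers, which the CD45 gate should leave out, 25 of 25 were listed and summed to 22.4 to 207 CPM in TdTomato+ and 30.0 to 119 CPM in TdTomato- libraries, higher in TdTomato+ in 4 of 5 pairs (exact sign-flip test on the mean log2 CPM, two-sided p = 0.125). In single libraries 0 to 7 of the 25 were at 0. Counts of calls from fits with this level as a covariate (the leukocyte covariate) are given with gene groups below. In bulk libraries a smaller share of a kind of cell and less RNA per cell cannot be told apart.

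TdTomato+ cells of P6 muscle had more RNA of venule and leukocyte homing genes, of capillary lipid-handling genes and of immediate early genes, and less of arterial, lymphatic and sprouting genes. The paired fit of the 10 libraries tested 13246 genes and called 471 of them at an adjusted p below 0.05 (3.56% of the genes tested). Of these, 265 were higher (2.0%) and 206 lower (1.56%) in TdTomato+ cells. These shares are the background for the calls of every gene list below. The lists were chosen with earlier results of these data known, so the shares give a scale and no test. At an unadjusted p below 0.05 there were 2082 genes (15.7%), 1027 higher and 1055 lower, the background for the unadjusted counts of the lists. A change of at least 2-fold was called for 48 higher genes (0.362%) and 56 lower genes (0.423%), and the median fold of called genes was 1.42 for higher and 1.54 for lower ones. Every adjusted p here is from the quasi-likelihood test of edgeR, adjusted by the method of Benjamini and Hochberg. The difference had the same sign in 5 of 5 pairs for 462 of the 471 genes, and for 303 of them the groups did not overlap. The calls were made from these same pairs, so neither count is separate support for them. Over all genes tested, 2097 (15.8%) had the same sign in 5 of 5 pairs. Groups did not overlap for 590 of all genes tested (4.45%), with 2.2% higher and 2.26% lower in TdTomato+ cells. Without the pair term 344 genes were called, 326 of them among the 471. The authors' deposited table lists 15 genes at a false discovery rate below 0.05 for this comparison, 7 higher and 8 lower in TdTomato+ cells, and 10 of the 15 were called here with the same sign.

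**Figure D1:**
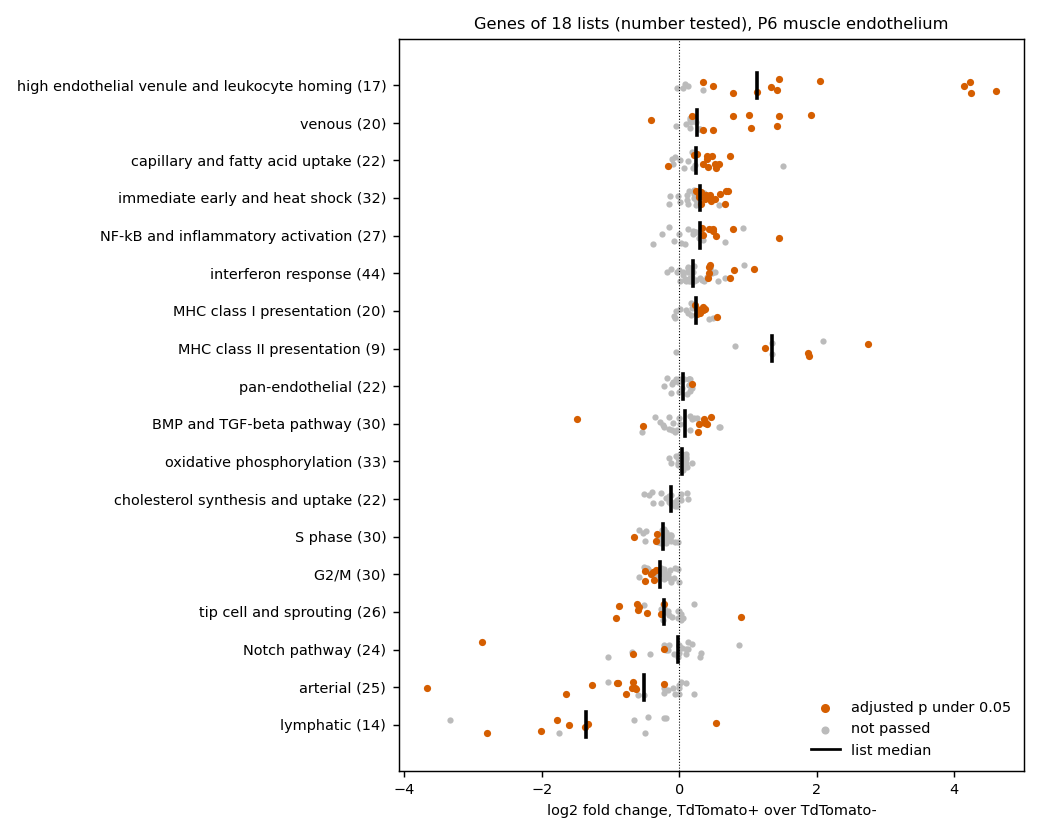
Log2 fold changes (TdTomato+ over TdTomato-, x axis) of the genes of 18 lists (rows, with the number of genes tested). Each point is a gene, orange where its adjusted p was below 0.05 and grey where not, and the black bar is the list's median, 1.12 for venule and homing genes and -1.35 for lymphatic genes.

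The driver gene of the reporter was itself higher in TdTomato+ cells. Abcg2 stood at 138, 146, 161, 141 and 147 CPM in TdTomato+ libraries 1 to 5 and at 95.5, 115, 119, 124 and 112 CPM in TdTomato- libraries 1 to 5. The groups did not overlap, and TdTomato- cells held substantial Abcg2 RNA. The log2 fold change was 0.38 ± 0.07 (± SE, here and below), with adjusted p = 0.00733. This call was lost under 2 of 14 alternatives, with RNA integrity or the leukocyte marker level as a covariate, where the adjusted p reached 0.0892. The tested genes proposed as marks of endothelial stem or progenitor cells numbered 13, with Abcg2 itself among them. Of these, 3 rose and 1 fell, against 2.0% and 1.56% of all genes. These counts were 1 and 1 in the fit with no pair term, 1 and 0 with RNA integrity as a covariate and 0 and 0 with the leukocyte covariate, and 1 rose without pair 4 or without pair 5. Abcg2 was 1 of the 3, and its locus drives the label by which the cells were sorted, so its rise is not independent of the sort. The others were the cell surface gene Ly6a (0.33 ± 0.06, adjusted p = 0.0141) and the transcription factor gene Klf4 (0.31 ± 0.07, adjusted p = 0.0259). The Klf4 call was lost under 9 of 14 alternatives, with any 1 pair left out among them, the Ly6a call under 5 and the Cd34 call, given next, under 3. Ly6a has close relatives in the genome, so its count is uncertain. Cd34, the sialomucin of capillary and progenitor surfaces, fell by 0.23 on the log2 scale, averaging 2240 ± 133 CPM in TdTomato+ and 2629 ± 111 CPM in TdTomato- cells (SD, n = 5 each, adjusted p = 0.00453). Its exons overlap those of Gm16897, with which reads could be shared. Procr, the protein C receptor gene, averaged 63.0 ± 8.3 CPM in TdTomato+ and 65.5 ± 6.3 CPM in TdTomato- cells (-0.06 ± 0.08, adjusted p = 0.801). Kit, the stem cell factor receptor gene, averaged 85.7 ± 15 CPM in TdTomato+ and 105 ± 23 CPM in TdTomato- cells (-0.29 ± 0.10, adjusted p = 0.184). In the 20 tested genes of the ABC transporter family, Abcg2 alone rose and Abcd3, a peroxisomal transporter gene, alone fell (-0.30 ± 0.07, adjusted p = 0.0441). The Abcd3 call was lost under 9 of 14 alternatives.

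Venule and leukocyte homing genes were higher in TdTomato+ cells. Of 17 tested genes of this list, 12 rose and 0 fell, against 2.0% and 1.56% of all genes, with the same counts at an unadjusted p below 0.05 and with DESeq2. The list's median log2 fold change was 1.12, against 0.0019 for all genes tested, and 11 genes had groups that did not overlap. There were 11 calls without the pair term, with the leukocyte marker level as a covariate 10, and in a joint model of 46 libraries, whose spread is set by all tissues, 6.

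Promoters of 3 of these genes and of an interferon gene are shown because lists of inflammatory and interferon response genes are described below. They are RefSeq sequences of build GRCm38.p6, given on the gene's strand, 5′ to 3′, as the 250 bases before the annotated start, from chr15:103565082-103565331 (minus strand) for Glycam1, chr10:79664309-79664558 (plus) for Madcam1, chr17:37193642-37193891 (plus) for Ubd and chr12:26456453-26456702 (minus) for Rsad2. Capitals mark a match on either strand, in the first 3 to a kB pattern (GGG, any 2 bases, TTTCC) and in Rsad2 to an interferon response pattern (GAAA, any 2 bases, GAAA).
Glycam1: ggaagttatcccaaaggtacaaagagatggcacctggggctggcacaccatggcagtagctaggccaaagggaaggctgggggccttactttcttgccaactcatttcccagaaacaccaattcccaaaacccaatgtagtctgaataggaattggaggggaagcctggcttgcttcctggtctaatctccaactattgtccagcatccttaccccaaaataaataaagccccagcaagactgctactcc
Madcam1: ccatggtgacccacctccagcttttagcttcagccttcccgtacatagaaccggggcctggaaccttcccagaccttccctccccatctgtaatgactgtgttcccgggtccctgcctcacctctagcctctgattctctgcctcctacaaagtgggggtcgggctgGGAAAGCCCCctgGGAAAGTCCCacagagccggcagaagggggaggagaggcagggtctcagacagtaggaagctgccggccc
Ubd: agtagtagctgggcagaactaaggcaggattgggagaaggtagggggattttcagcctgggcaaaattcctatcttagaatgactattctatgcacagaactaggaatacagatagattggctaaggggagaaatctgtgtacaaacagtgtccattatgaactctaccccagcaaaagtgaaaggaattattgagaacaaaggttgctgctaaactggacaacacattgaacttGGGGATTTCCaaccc
Rsad2: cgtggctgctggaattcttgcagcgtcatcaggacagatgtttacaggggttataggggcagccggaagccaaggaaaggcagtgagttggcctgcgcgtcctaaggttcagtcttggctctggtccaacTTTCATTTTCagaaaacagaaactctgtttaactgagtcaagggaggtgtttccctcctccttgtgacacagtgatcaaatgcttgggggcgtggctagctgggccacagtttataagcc
Madcam1 held 2 matches, at bases -83 to -74 and -70 to -61 before the start, Ubd held 1 at -15 to -6, and Glycam1 held none. Over the 11671 listed genes with a promoter entry, 171 (1.47%) held the kB pattern in the same window. Among the venule and homing genes it was 3 of 14 (Fut4, Madcam1 and Ubd), and among NF-kB and inflammatory genes 8 of 20. Whole lists were counted here, called genes or not. Fut4 was not called, and of the 8 NF-kB and inflammatory genes Nfkbia alone was called higher. The pattern matches are matches of letters, not measured sites, and the patterns were chosen with the sequences in view.

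Glycam1, which encodes a mucin-like ligand of L-selectin, was at 161, 138, 392, 253 and 259 CPM in TdTomato+ libraries, against 9.09, 17.8, 17.6, 13.14 and 8.31 CPM in TdTomato- libraries. Every TdTomato+ library was well above every TdTomato- library, with a log2 fold change of 4.15 ± 0.29 (adjusted p = 0.000489). Madcam1, the addressin that binds integrins and L-selectin on leukocytes, stood at 149, 114, 249.9, 206 and 188 CPM in TdTomato+ and 37.5, 45.9, 50.6, 42.8 and 36.7 CPM in TdTomato- libraries (2.05 ± 0.13, adjusted p = 6.1e-06). The groups were again apart, though TdTomato- cells held more Madcam1 than a trace. The enzymes that build L-selectin ligands moved with them. Fut7, a fucosyltransferase gene, was at 29.8, 19.3, 59.4, 46.2 and 39.6 CPM in TdTomato+ and at 0.812, 1.595, 3.54, 4.04 and 0.789 CPM in TdTomato- libraries (4.25 ± 0.27, adjusted p = 6.1e-06). Chst4, a sulfotransferase gene of high endothelial venules, was at 12.0, 6.03, 21.9, 16.4 and 18.9 CPM in TdTomato+ libraries and 0.609, 0.310, 0.663, 1.07 and 0.368 CPM in TdTomato- libraries (4.61 ± 0.28, adjusted p = 4.77e-06). TdTomato+ library 2 was the lowest of its group for Glycam1, Madcam1, Fut7, Chst4 and Ubd, and library 3 the highest. Chst2, a related sulfotransferase gene, rose by less, with 63.4 ± 3 CPM in TdTomato+ and 29.3 ± 4.4 CPM in TdTomato- cells (1.12 ± 0.10, adjusted p = 9.35e-05). Ubd, which encodes a ubiquitin-like modifier induced by cytokines, was at 26.2, 14.6, 40.7, 26.8 and 27.3 CPM in TdTomato+ and at 1.22, 1.37, 1.504, 1.36 and 1.47 CPM in TdTomato- libraries (4.23 ± 0.20, adjusted p = 1.25e-06). Enpp2, the gene of autotaxin, which makes lysophosphatidic acid and is secreted by high endothelial venules, was at 181, 159.7, 289, 157 and 183 CPM in TdTomato+ and 69.4, 82.6, 80.7, 73.9 and 69.4 CPM in TdTomato- libraries (1.33 ± 0.11, adjusted p = 4.57e-05). For both genes the groups were far apart.

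**Figure D2:**
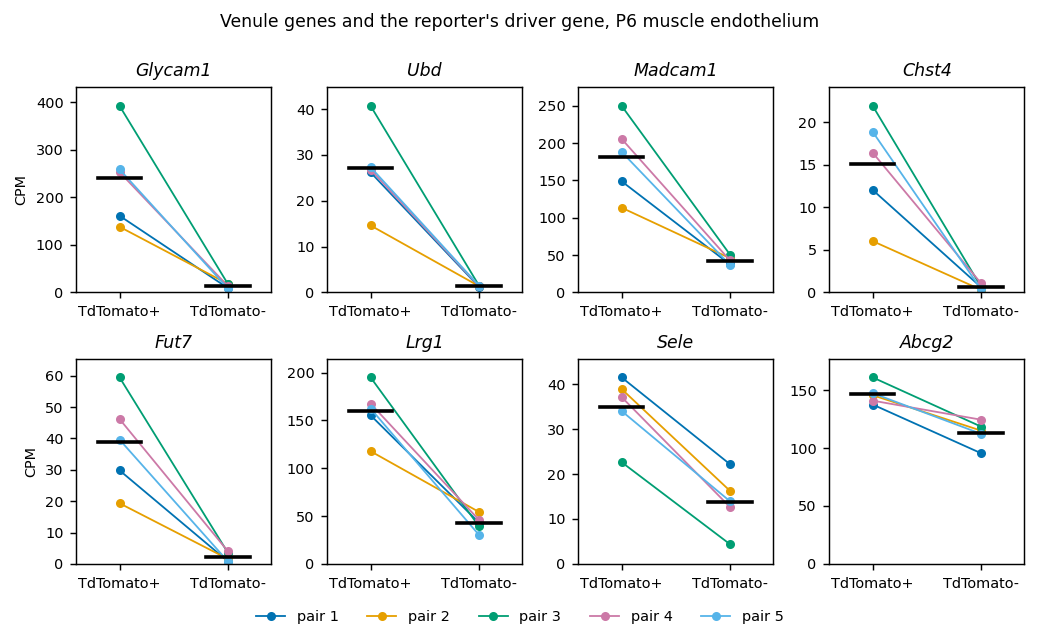
CPM (y axis, from 0) of 7 venule genes and of Abcg2 in TdTomato+ (left) and TdTomato- (right) libraries, with lines joining pairs and black bars at the group means. All 5 pairs moved the same way for each gene, and Glycam1 spanned 138 to 392 CPM in TdTomato+ against 8.31 to 17.8 CPM in TdTomato- libraries.

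In the general venous list, 9 of 20 tested genes were higher and 1 was lower, with a median of 0.26. Of the higher ones, Ackr1, Selp, Sele, Icam1 and Vcam1 were already counted in the venule and homing list. The venous list is thus not separate from it. There were 7 and 1 venous calls without the pair term, and 5 and 0 with the leukocyte covariate. The joint model called 3 higher and 0 lower there, and 18 of the 20 genes had a positive fold change. Plvap, the gene of the diaphragm protein of fenestrae and venules, was at 1094, 1124, 1081, 1255 and 1071 CPM in TdTomato+ and 604, 646, 489, 538 and 475 CPM in TdTomato- libraries. The groups did not overlap, with a log2 fold change of 1.04 ± 0.07 (adjusted p = 5.74e-06). Lrg1, which encodes a secreted glycoprotein of venules, was at 155, 118, 195, 167 and 162 CPM in TdTomato+ and 43.1, 54.3, 39.4, 46.0 and 30.3 CPM in TdTomato- libraries (1.91 ± 0.16, adjusted p = 0.000151). The leukocyte adhesion genes of activated venules were higher too. Sele, the E-selectin gene, was at 41.5, 38.9, 22.6, 37.1 and 34.0 CPM in TdTomato+ and 22.2, 16.3, 4.38, 12.7 and 13.9 CPM in TdTomato- libraries (1.45 ± 0.17, adjusted p = 0.000581), and pair 3 was lowest in both groups. Ackr1, the chemokine-binding receptor of venules, was at 21.4, 25.3, 31.6, 36.0 and 31.2 CPM in TdTomato+ and 11.02, 11.2, 11.5, 9.39 and 10.4 CPM in TdTomato- libraries (1.42 ± 0.15, adjusted p = 0.000237). Selp, the P-selectin gene, averaged 66.9 ± 15 CPM in TdTomato+ and 38.8 ± 7.1 CPM in TdTomato- cells (0.77 ± 0.08, adjusted p = 0.000268). Icam1 (0.34 ± 0.06) and Vcam1 (0.48 ± 0.11), ligands of leukocyte integrins, rose less. Nr2f2, the gene of the transcription factor COUP-TFII that specifies veins, was at 38.7 ± 3.3 CPM in TdTomato+ and 32.9 ± 2.2 CPM in TdTomato- cells, higher in 5 of 5 pairs but not past the test (0.24 ± 0.09, adjusted p = 0.224). Ephb4, the venous ephrin receptor gene (0.15 ± 0.05, adjusted p = 0.125), and Vwf, the von Willebrand factor gene (0.16 ± 0.07, adjusted p = 0.295), did not pass. Cpe, a carboxypeptidase gene of the list, was the lower one (-0.42 ± 0.06, adjusted p = 0.00333).

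Arterial genes were lower in TdTomato+ cells. Of 25 tested genes 11 fell and 0 rose, against 1.56% and 2.0% of all genes, with a median log2 fold change of -0.52. At an unadjusted p below 0.05 it was 14 lower and 1 higher, and with DESeq2 12 lower and 1 higher. The joint model called 5 lower, the fit with the leukocyte covariate 8, and the fit with no pair term 10. Gja5, the gene of connexin 40, the gap junction protein of arterial endothelium, was at 25.06, 25.8, 23.7, 22.4 and 32.7 CPM in TdTomato+ and at 79.5, 79.3, 82.3, 86.2 and 77.7 CPM in TdTomato- libraries. All TdTomato+ libraries lay far below all TdTomato- libraries, with -1.65 ± 0.10 (adjusted p = 5.74e-06). Its partner Gja4, connexin 37, fell by 0.70 on the log2 scale, with 127 ± 6.7 CPM in TdTomato+ and 207 ± 19 CPM in TdTomato- cells (SD, n = 5 each, adjusted p = 0.000132). Gkn3, a secreted protein gene that marks arterial endothelium in mice, was at 0.714, 1.04, 0.430, 0.475 and 1.69 CPM in TdTomato+ and 14.5, 7.22, 12.3, 14.0 and 6.102 CPM in TdTomato- libraries (-3.67 ± 0.44, adjusted p = 0.00056). Bmx, a tyrosine kinase gene of arterial endothelium, was at 7.56, 11.3, 9.54, 7.48 and 9.02 CPM in TdTomato+ and 31.0, 12.7, 23.6, 18.8 and 24.7 CPM in TdTomato- libraries (-1.27 ± 0.22, adjusted p = 0.00694). Its groups did not overlap but came close in pair 2. Fbln5, the fibulin 5 gene needed for elastic fibres (-0.77 ± 0.08, adjusted p = 0.000151), and Eln, the elastin gene (-0.89 ± 0.16, adjusted p = 0.0342), fell too. Stmn2 (-0.91 ± 0.11), Vegfc (-0.63 ± 0.09) and Sema3g (-0.65 ± 0.13) were also called lower. The fall did not include every arterial gene. Sox17, the arterial transcription factor gene, averaged 439.9 ± 35 CPM in TdTomato+ and 431 ± 12 CPM in TdTomato- cells (0.03 ± 0.06, adjusted p = 0.878). Efnb2, the arterial ephrin gene, averaged 210.1 ± 23 CPM in TdTomato+ and 213 ± 36 CPM in TdTomato- cells (-0.01 ± 0.07, adjusted p = 0.974). Hey1, a Notch target gene, averaged 150.4 ± 29 CPM in TdTomato+ and 151 ± 29 CPM in TdTomato- cells (-0.01 ± 0.06, adjusted p = 0.981).

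In the Notch pathway, which directs arterial fate, 3 of 24 tested genes fell and 0 rose, with a median of -0.01 (6 lower and 3 higher at an unadjusted p below 0.05, 4 and 1 with DESeq2). It was 3 lower without the pair term, and 1 with the leukocyte covariate or in the joint model. Dtx1, a Deltex ubiquitin ligase gene and Notch target, was at 1.595, 2.45, 3.40, 1.43 and 3.02 CPM in TdTomato+ and 20.2, 16.3, 17.3, 15.6 and 14.6 CPM in TdTomato- libraries (-2.87 ± 0.24, adjusted p = 4.77e-05). Every TdTomato+ library lay far below every TdTomato- library. The ligand genes Jag1 (-0.67 ± 0.11, adjusted p = 0.00416) and Dll4 (-0.23 ± 0.05, adjusted p = 0.0293) fell less, and reads of Dll4 could be shared with the overlapping gene Gm14207. The Dll4 call was lost under 7 of 14 alternatives. Notch4 (-0.17 ± 0.09, adjusted p = 0.385) and the target gene Hes1 (0.18 ± 0.07, adjusted p = 0.202) did not pass.

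**Figure D3:**
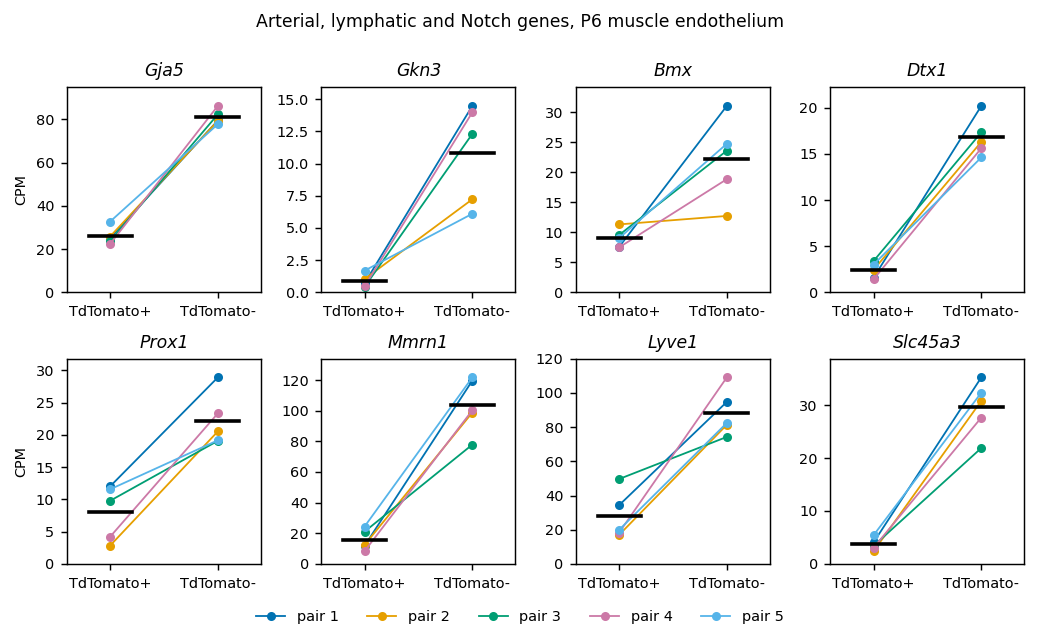
CPM (y axis, from 0) of arterial genes (Gja5, Gkn3, Bmx), the Notch target gene Dtx1, lymphatic genes (Prox1, Mmrn1, Lyve1) and Slc45a3 in TdTomato+ (left) and TdTomato- (right) libraries, with lines joining pairs and black bars at the group means. Every pair fell for each gene, with Gja5 at 22.4 to 32.7 CPM in TdTomato+ against 77.7 to 86.2 CPM in TdTomato- libraries.

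Lymphatic genes had the lowest median of the lists, -1.35, with 6 of 14 tested genes lower and 1 higher. The count of lower genes was 6 without the pair term, 3 without pair 5, 2 with the leukocyte covariate and 8 with DESeq2. Prox1, the transcription factor gene that makes endothelium lymphatic, was at 12.0, 2.83, 9.78, 4.20 and 11.6 CPM in TdTomato+ and 28.9, 20.5, 19.06, 23.3 and 19.15 CPM in TdTomato- libraries (-1.61 ± 0.28, adjusted p = 0.00733). Mmrn1, the multimerin gene of lymphatic endothelium and platelets, was at 11.8, 12.4, 21.08, 8.35 and 24.4 CPM in TdTomato+ and 119.6, 98.8, 77.8, 100.2 and 122 CPM in TdTomato- libraries (-2.80 ± 0.24, adjusted p = 0.000489). Both genes had groups that did not overlap, and both kept RNA in every TdTomato+ library. Lyve1, the hyaluronan receptor gene of lymphatic capillaries, was at 34.3, 17.0, 49.7, 18.3 and 19.9 CPM in TdTomato+ and 94.8, 81.4, 74.3, 109 and 82.5 CPM in TdTomato- libraries (-1.78 ± 0.28, adjusted p = 0.0172), and TdTomato+ library 3 stood nearest to the TdTomato- group. Fgl2, a fibrinogen-like gene of the list that other cells also express, was at 30.9, 18.2, 16.7, 12.2 and 26.8 CPM in TdTomato+ and 105, 69.9, 63.2, 79.6 and 92 CPM in TdTomato- libraries (-2.01 ± 0.13, adjusted p = 6.1e-06). Tbx1 (-1.33 ± 0.25, adjusted p = 0.0102), a transcription factor gene of lymphatic growth, and Pdpn (-1.38 ± 0.29, adjusted p = 0.0236), the podoplanin gene, were lower as well. Flt4, the gene of the VEGF-C receptor VEGFR3, which growing blood capillaries share, averaged 122 ± 17 CPM in TdTomato+ and 143 ± 31 CPM in TdTomato- cells (-0.22 ± 0.12, adjusted p = 0.43). Nts, the neurotensin gene, was the higher one, with 45.5, 63.5, 72.1, 58.4 and 64.7 CPM in TdTomato+ and 35.5, 45.3, 51.5, 38.6 and 38.1 CPM in TdTomato- libraries (0.54 ± 0.08, adjusted p = 0.00377). Ackr4, a scavenging receptor gene for the lymphatic chemokines, belongs to the chemokine list and was lower, at 2.14, 1.55, 3.01, 1.46 and 6.84 CPM in TdTomato+ and 10.9, 14.5, 22.9, 17.2 and 15.7 CPM in TdTomato- libraries (-2.62 ± 0.31, adjusted p = 0.000487). Its exons overlap those of Acad11. That list had 2 higher (Ackr1 and Cxcl10) and 2 lower (Ackr3 and Ackr4) of 16 tested genes, with Ackr3, which scavenges CXCL12, at -0.61 ± 0.08 (adjusted p = 0.000691). Its higher calls became 1 with the leukocyte covariate or without pair 2, 4 or 5.

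Genes of capillaries and of fatty acid uptake were modestly higher, 11 of 22 tested, with 1 lower and a median of 0.24. It was 6 higher without the pair term, with the leukocyte marker level as a covariate 5, and in the joint model 3. Car4, the gene of a carbonic anhydrase on capillary surfaces, was at 815, 833, 1001, 917 and 959 CPM in TdTomato+ and 462, 474, 680.3, 607 and 520.4 CPM in TdTomato- libraries (0.73 ± 0.06, adjusted p = 3.14e-05). The groups did not overlap. Lpl, the lipoprotein lipase gene, was at 398, 464, 553, 462 and 495 CPM in TdTomato+ and 262, 289, 419, 319 and 308 CPM in TdTomato- libraries (0.58 ± 0.05, adjusted p = 0.00011), where the lowest TdTomato+ library lay below the highest TdTomato- library. Every pair still moved upwards. Pparg, the nuclear receptor gene for fatty acids, averaged 279 ± 27 CPM in TdTomato+ and 194 ± 15 CPM in TdTomato- cells (0.53 ± 0.06, adjusted p = 0.000268). Its list partners Fabp4, a fatty acid binding protein (0.40 ± 0.06, adjusted p = 0.00428), and Gpihbp1, which holds lipoprotein lipase on capillaries (0.21 ± 0.05, adjusted p = 0.0384), rose by less. Rgcc rose too (0.47 ± 0.05, adjusted p = 0.000392), and Cd36, the fatty acid transporter gene, did not pass (0.20 ± 0.06, adjusted p = 0.0994). Cav1, the main protein of caveolae, was the lower one (-0.17 ± 0.04, adjusted p = 0.0206). Angptl4, an inhibitor of lipoprotein lipase from the VEGF and angiopoietin list, was at 688, 814, 929, 816 and 850.4 CPM in TdTomato+ and 408, 444, 689, 487 and 503 CPM in TdTomato- libraries (0.71 ± 0.06, adjusted p = 4.82e-05).

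Sprouting and tip cell genes were lower, 8 of 26 tested against 1 higher, with a median of -0.22. The joint model called 3 lower and 1 higher, the fit without the pair term 6 and 1, and that with the leukocyte covariate 4 and 1. Igfbp3, the gene of a secreted binder of insulin-like growth factors, was at 538, 482, 380.3, 469.6 and 441 CPM in TdTomato+ and 934, 931, 704, 874 and 812 CPM in TdTomato- libraries (-0.88 ± 0.04, adjusted p = 1.25e-06). Its groups were well apart. Apln, the apelin gene of growing vessels, was at 488, 459, 376, 476 and 424 CPM in TdTomato+ and 698, 746, 576, 676 and 637 CPM in TdTomato- libraries (-0.59 ± 0.05, adjusted p = 3.44e-05). Mest, an imprinted gene of growing tissue whose exons overlap those of Copg2, averaged 1332 ± 98 CPM in TdTomato+ and 1853 ± 93 CPM in TdTomato- cells (-0.48 ± 0.04, adjusted p = 0.000108). Adm (-0.61 ± 0.07, adjusted p = 0.000641), the adrenomedullin gene, Esm1 (-0.61 ± 0.10, adjusted p = 0.00416), the tip cell proteoglycan gene, and Pgf (-0.92 ± 0.18, adjusted p = 0.0118), the placental growth factor gene, fell with them. Ramp3, a co-receptor for adrenomedullin, was the higher one (0.90 ± 0.16, adjusted p = 0.00768). Kdr, the main VEGF receptor gene, averaged 2069 ± 302 CPM in TdTomato+ and 1868 ± 223 CPM in TdTomato- cells and did not pass (0.14 ± 0.05, adjusted p = 0.209), nor did Nrp1 (-0.07 ± 0.04, adjusted p = 0.487). In the VEGF and angiopoietin list, 1 of 15 tested genes (Angptl4) rose and 2 (Vegfc and Pgf) fell, with 1 and 1 called with the leukocyte covariate.

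Proliferation genes had small negative fold changes throughout. All 30 S phase genes and all 30 G2/M genes tested had a negative log2 fold change, as did 49.6% of all genes tested, with medians of -0.24 and -0.28. Of the S phase list 3 fell and 0 rose, and of the G2/M list 6 fell and 0 rose. At an unadjusted p below 0.05 it was 17 lower and 0 higher for S phase and 19 lower and 0 higher for G2/M, and with DESeq2 it was 6 and 0, and 10 and 0. There were 2 lower genes in each list without the pair term, 1 in each with RNA integrity as a covariate and 0 in each with the leukocyte covariate or in the joint model. Left out in turn, the pairs gave 0 to 3 lower S phase genes, with 0 without pair 2, and 2 to 4 lower G2/M genes. Mcm6, a subunit of the replicative helicase, was at 161, 159, 163, 154 and 156 CPM in TdTomato+ and 177, 205, 199, 201 and 219 CPM in TdTomato- libraries (-0.33 ± 0.06, adjusted p = 0.0098). Tpx2, a spindle assembly gene, averaged 46.5 ± 9.4 CPM in TdTomato+ and 65.4 ± 9.5 CPM in TdTomato- cells (-0.50 ± 0.08, adjusted p = 0.00377). Mki67, the gene of the proliferation antigen Ki-67, stood at 56.8, 46.5, 69.4, 54.2 and 57.4 CPM in TdTomato+ and 72.5, 79.9, 75.9, 70.6 and 78.8 CPM in TdTomato- libraries (-0.42 ± 0.09, adjusted p = 0.0259). The groups did not overlap for Mcm6 and Mki67, narrowly so for Mki67 (69.4 against 70.6 CPM), and overlapped for Tpx2. The Mki67 call was lost under 7 of 14 alternatives, among them without pair 1, 2, 4 or 5. That of Mcm6 was lost under 4 and that of Tpx2 under 3.

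Immediate early genes were higher in TdTomato+ cells, 16 of 32 tested with 0 lower, and a median of 0.30 (20 higher and 1 lower at an unadjusted p below 0.05, 18 and 0 with DESeq2). Without the pair term 5 were called, and with the leukocyte covariate 6. Nr4a1, an orphan nuclear receptor gene, was at 293, 284, 277, 321 and 313 CPM in TdTomato+ and 199.7, 169.7, 183, 186 and 199 CPM in TdTomato- libraries (0.67 ± 0.05, adjusted p = 4.71e-05), with no overlap. Egr1, a zinc finger factor gene, was at 1243, 1084, 643, 1048 and 1009 CPM in TdTomato+ and 957, 791, 475, 821 and 732 CPM in TdTomato- libraries (0.42 ± 0.04, adjusted p = 0.000163). Here the groups overlapped, and both libraries of pair 3 were the lowest of their group. Zfp36, which encodes a factor that degrades messages of cytokines (0.59 ± 0.05, adjusted p = 0.000108), and Fos (0.45 ± 0.05, adjusted p = 0.000193) behaved in the same manner, with pair 3 lowest. Klf2, the flow-induced factor gene of endothelium, averaged 569.8 ± 50 CPM in TdTomato+ and 465 ± 18 CPM in TdTomato- cells (0.29 ± 0.05, adjusted p = 0.00712). The heat shock genes of the list, Hspa1a (0.22 ± 0.10, adjusted p = 0.329) and Hspa1b (0.24 ± 0.09, adjusted p = 0.199), near-identical copies with uncertain counts, did not pass.

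Antigen presentation and inflammatory genes were moderately higher. Of 20 tested genes of MHC class I presentation 8 rose and 0 fell, with a median of 0.24 (13 and 0 at an unadjusted p below 0.05, 9 and 0 with DESeq2). This count was 1 without the pair term, 1 with the leukocyte covariate, 3 with RNA integrity as a covariate and 3 or 4 with any pair left out. H2-T23, a nonclassical class I gene, was at 213, 195, 235, 256 and 193 CPM in TdTomato+ and 143, 139, 160.1, 164 and 138 CPM in TdTomato- libraries (0.55 ± 0.05, adjusted p = 0.000149), and passed under all 14 alternatives. H2-K1, a classical class I gene, was at 579, 392, 895, 687 and 694 CPM in TdTomato+ and 452, 324, 723, 471 and 531 CPM in TdTomato- libraries (0.37 ± 0.05, adjusted p = 0.00117), with overlapping groups and a rise in each pair. Counts of class I genes are uncertain because the genes resemble each other, and exons of H2-D1 and H2-L overlap. B2m, the shared light chain, rose by a like amount (0.25 ± 0.05, adjusted p = 0.0175).

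MHC class II genes had a median of 1.35 over 9 tested genes, 4 of them higher and 0 lower (6 and 0 at an unadjusted p below 0.05, 5 and 0 with DESeq2). Cd74, the invariant chain gene, was at 12.3, 10.3, 56.2, 36.5 and 30.3 CPM in TdTomato+ and 8.48, 8.69, 13.0, 14.9 and 8.15 CPM in TdTomato- libraries (1.24 ± 0.25, adjusted p = 0.0153). H2-Aa was at 0.630, 1.13, 8.64, 5.62 and 4.27 CPM in TdTomato+ and 0.355, 0.133, 0.575, 1.12 and 0.421 CPM in TdTomato- libraries (2.74 ± 0.50, adjusted p = 0.00886). For both, TdTomato+ libraries 3, 4 and 5 were high and libraries 1 and 2 were near or within the TdTomato- range. The summed leukocyte markers followed the same libraries, at 22.4, 63.4, 207, 182 and 118 CPM in TdTomato+ and 30.0, 31.5, 80.3, 119 and 49.1 CPM in TdTomato- libraries 1 to 5. The count of 4 became 0 with the leukocyte covariate, 0 with RNA integrity as a covariate, 0 without pair 3 and 0 without pair 5. It was 1 without pair 4, 2 without pair 2 and 1 without the pair term. The Cd74 call was lost under 7 of 14 alternatives and the H2-Aa call under 4. Lyz2, a myeloid marker, was at 2.48, 10.4, 44.6, 41.0 and 36.8 CPM in TdTomato+ and 3.81, 3.99, 18.4, 22.8 and 9.47 CPM in TdTomato- libraries (1.06 ± 0.27, adjusted p = 0.065). Ptprc, the CD45 gene used in the gate, was at 0, 0.188, 3.87, 1.31 and 0.578 CPM in TdTomato+ and 0.457, 0.886, 3.27, 2.14 and 0.473 CPM in TdTomato- libraries, with 0 in TdTomato+ library 1.

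**Figure D4:**
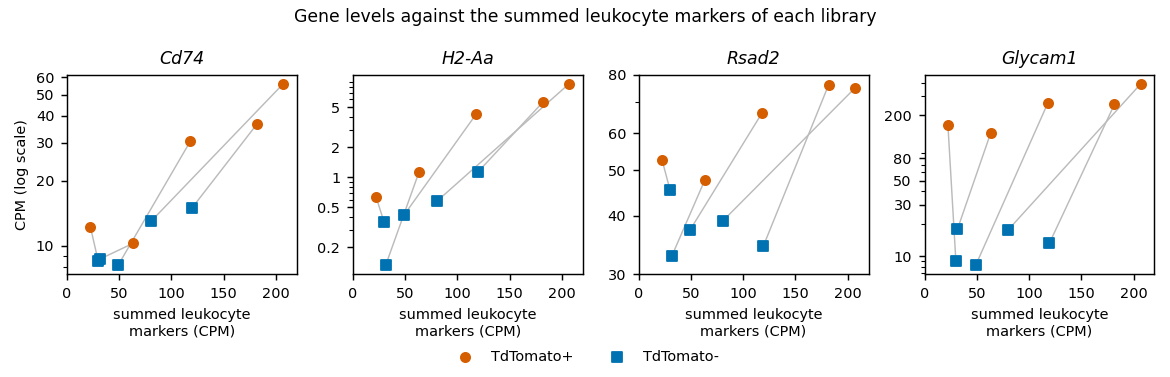
CPM of Cd74, H2-Aa, Rsad2 and Glycam1 (y axis, log scale) against the summed CPM of 25 leukocyte markers (x axis) in each TdTomato+ (orange circle) and TdTomato- (blue square) library, with grey lines joining pairs. Cd74, H2-Aa, Rsad2 and Glycam1 were each highest in the 3 TdTomato+ libraries with the most leukocyte marker RNA. Glycam1 was at 161 CPM in the TdTomato+ library with the least.

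Interferon response genes had a median of 0.20, with 7 of 44 tested genes higher, 0 lower and 40 positive (17 and 0 at an unadjusted p below 0.05, 7 and 0 with DESeq2). The count was 6 without the pair term, 1 with the leukocyte covariate and 3 to 6 with a pair left out, 3 without pair 2 or pair 4. Rsad2, the antiviral viperin gene, whose promoter with its interferon response pattern is printed above, was at 52.6, 47.7, 74.9, 76.1 and 66.2 CPM in TdTomato+ and 45.4, 32.7, 38.9, 34.5 and 37.2 CPM in TdTomato- libraries (0.74 ± 0.12, adjusted p = 0.005). TdTomato- library 1 came close to the lowest TdTomato+ library. The Rsad2 call was lost under 1 of 14 alternatives, the leukocyte covariate (adjusted p = 0.218). Irf1, an interferon-induced factor gene, was at 216, 209, 155, 219 and 201 CPM in TdTomato+ and 164, 149, 117, 146 and 169 CPM in TdTomato- libraries (0.42 ± 0.06, adjusted p = 0.00212). Cxcl10, a chemokine gene, averaged 8.20 ± 1.9 CPM in TdTomato+ and 4.00 ± 1.7 CPM in TdTomato- cells (1.08 ± 0.21, adjusted p = 0.0115). Its call was lost under 6 of 14 alternatives. The interferon response pattern was in 19 of 35 promoters of the interferon list, called genes or not, against 306 of 11671 (2.62%) of all. It was in 0 of 14 promoters of the venule and homing list. In the NF-kB and inflammatory list, which shares Selp, Sele, Icam1, Vcam1 and Irf1 with the lists above, 8 of 27 tested genes rose and 0 fell (12 and 1 at an unadjusted p below 0.05, 10 and 1 with DESeq2). The others were Socs3, a feedback inhibitor of cytokine signals (0.49 ± 0.06, adjusted p = 0.000565), Nfkbia, the NF-kB inhibitor gene (0.32 ± 0.05, adjusted p = 0.00468), and Nfkbiz. Without the pair term 5 were called and with the leukocyte covariate 3.

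Of 30 tested BMP and TGF-beta genes 7 rose and 2 fell, with a median of 0.08. These counts were 3 and 1 without the pair term, with the leukocyte covariate 0 and 1, and 4 rose with any 1 of pairs 1 to 4 left out. Bmp6, a ligand gene, was at 158, 260.2, 208, 212 and 225 CPM in TdTomato+ and 117, 186, 187, 146 and 169 CPM in TdTomato- libraries (0.40 ± 0.06, adjusted p = 0.004). The target genes Id1 (0.28 ± 0.05, adjusted p = 0.00971), Id2 (0.37 ± 0.07, adjusted p = 0.00847) and Id3 (0.27 ± 0.04, adjusted p = 0.00422) rose, as did the inhibitory Smad6 (0.38 ± 0.08, adjusted p = 0.0238) and Smad7 (0.36 ± 0.08, adjusted p = 0.0335). Tmem100, a gene downstream of the arterial receptor ALK1, fell, at 6.34, 16.3, 12.9, 12.6 and 16.0 CPM in TdTomato+ and 31.3, 36.7, 39.0, 36.7 and 30.14 CPM in TdTomato- libraries (-1.50 ± 0.17, adjusted p = 0.00046), together with the ligand gene Tgfb2 (-0.53 ± 0.12, adjusted p = 0.026). Among Wnt genes 3 of 26 rose and 2 fell, against 2.0% and 1.56% of all genes. It was 2 and 1 without the pair term and 0 and 1 with the leukocyte covariate. Apcdd1, an inhibitor and target of the pathway, was at 15.2, 12.6, 17.6, 17.5 and 21.3 CPM in TdTomato+ and 5.64, 9.13, 6.15, 6.96 and 3.73 CPM in TdTomato- libraries (1.44 ± 0.24, adjusted p = 0.00532). Tcf7, a transcription factor gene of the pathway, rose (0.76 ± 0.14, adjusted p = 0.00869). The secreted antagonist Dkk2 was at 1.93, 0.424, 1.52, 1.62 and 2.40 CPM in TdTomato+ and 9.04, 9.53, 21.3, 11.2 and 7.47 CPM in TdTomato- libraries (-2.90 ± 0.36, adjusted p = 0.000772), a fall with no overlap.

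Smaller lists had few calls, to be set against 2.0% of all genes higher and 1.56% lower. Guidance genes had 3 lower of 26 (Sema3d, Ntn1 and Sema3g, with Ntn1, the netrin 1 gene, at -1.09 ± 0.20, adjusted p = 0.0105) and 0 higher (6 at an unadjusted p below 0.05, 2 with DESeq2). Without pair 5 it was 1 lower and 2 higher, with no pair term 2 and 0, and with the leukocyte covariate 0 and 0. Junction genes had 4 lower of 23 (Gja5, Gja4, Gja1 and Cdh13) and 0 higher (4 at an unadjusted p below 0.05, 1 with DESeq2), with 3 lower without the pair term and 2 with the leukocyte covariate. Efnb1, an ephrin ligand gene, was the 1 gene called of 16 ephrins and receptors, at 302, 358, 380.5, 351 and 363 CPM in TdTomato+ and 188, 225, 276, 225 and 236 CPM in TdTomato- libraries (0.61 ± 0.05, adjusted p = 4.82e-05). Of 26 collagen and laminin genes 2 rose and 4 fell, with 0 and 3 called with the leukocyte covariate and 0 and 0 in the joint model. The lower ones were Col8a1 (-0.74 ± 0.08), Col18a1 (-0.61 ± 0.07), Col5a2 (-0.74 ± 0.11) and Col15a1 (-0.34 ± 0.05), and the groups overlapped for Col15a1 only among these 4. Transporter genes had 3 higher of 24, among them Slc2a1, the glucose transporter gene (0.49 ± 0.10, adjusted p = 0.0198), and Slc7a5, the large amino acid transporter gene (0.55 ± 0.11, adjusted p = 0.0136), and 1 lower, Slc38a4. There were 3 higher without the pair term, 2 without pair 2 or pair 5, 1 without pair 3 or pair 4, 1 with RNA integrity as a covariate and 0 with the leukocyte covariate. The Slc2a1 call was lost under 5 of 14 alternatives and the Slc7a5 call under 6. Genes of shear stress and nitric oxide had 3 higher and 3 lower of 18, which became 1 and 3 without the pair term and 0 and 2 with the leukocyte covariate. Coagulation genes had 2 and 2 of 21 (1 and 2 without the pair term, 1 and 1 with the leukocyte covariate), with Thbd, the thrombomodulin gene, higher (0.27 ± 0.04, adjusted p = 0.00487). Eicosanoid genes had 3 higher of 18 (1 without the pair term, 1 with the leukocyte covariate), with Ptger4, a prostaglandin E2 receptor gene, at 0.50 ± 0.07 (adjusted p = 0.00244). Foxf1, a forkhead transcription factor gene, was the largest rise among 44 endothelial transcription factors, at 14.7, 15.9, 16.8, 14.8 and 16.3 CPM in TdTomato+ and 6.09, 5.89, 1.02, 3.31 and 4.73 CPM in TdTomato- libraries (2.04 ± 0.32, adjusted p = 0.00379). Of the 33 genes of oxidative phosphorylation 0 were called by edgeR (0 at an unadjusted p below 0.05 and 0 with DESeq2), with a median of 0.03. Of 22 genes of cholesterol synthesis and uptake edgeR called 0 (3 lower at an unadjusted p below 0.05, 2 lower with DESeq2), with a median of -0.12. Over the 9 lists of markers of other cells, edgeR called 1 gene, Anpep of the pericyte and smooth muscle list, which was lower (-1.07 ± 0.19, adjusted p = 0.00707). The lists were not flat for that. The leukocyte list had a median of 0.85, with 17 of 19 tested markers positive, and the muscle fibre list 0.16, with 15 of 18. Medians were negative for the erythroid and platelet list (-0.57) and the Schwann cell list (-0.14). DESeq2 called 1 leukocyte and 2 muscle fibre markers higher, 1 pericyte and smooth muscle marker in each direction and 1 erythroid and platelet marker lower. At an unadjusted p below 0.05, edgeR had 1 leukocyte, 2 muscle fibre and 2 pericyte and smooth muscle markers higher, and 1 marker lower in each of the lymph node stroma, pericyte and smooth muscle, fibroblast, erythroid and platelet, and Schwann cell lists.

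Large changes also fell outside these lists. Serpina1e, a gene of the alpha-1-antitrypsin cluster whose copies are near-identical, so that its count is uncertain, was at 6.51, 18.14, 53.8, 35.9 and 43.8 CPM in TdTomato+ and 0.152, 0, 0.265, 1.12 and 1.47 CPM in TdTomato- libraries (5.84 ± 0.44, adjusted p = 6.95e-05). It was the largest rise among called genes at a mean of 10 CPM or more. C1s1, a complement protease gene (1.51 ± 0.15, adjusted p = 0.000176), Car2, a carbonic anhydrase gene (1.46 ± 0.27, adjusted p = 0.0105), and Dsg2, a desmosomal cadherin gene (1.39 ± 0.32, adjusted p = 0.0342), followed at this level. Between 1 and 10 CPM, Bpifb5 (4.53 ± 0.90), Oit1 (4.44 ± 0.54), Nefh (4.37 ± 0.83), a neurofilament gene whose exons overlap those of Ap1b1, and Ggt5 (3.16 ± 0.57), a gamma-glutamyl transferase gene, rose most besides Chst4. The largest fall at 10 CPM or more was that of Slc45a3, a sugar transporter family gene, with 4.07, 2.40, 3.40, 3.05 and 5.42 CPM in TdTomato+ and 35.2, 30.8, 21.9, 27.6 and 32.3 CPM in TdTomato- libraries (-3.03 ± 0.18, adjusted p = 4.19e-06). Its groups were several-fold apart in every pair. Gper1, the G protein-coupled oestrogen receptor gene, was at 7.43, 9.89, 7.94, 7.17 and 10.5 CPM in TdTomato+ and 32.2, 29.07, 38.7, 26.8 and 26.7 CPM in TdTomato- libraries (-1.84 ± 0.15, adjusted p = 4.82e-05). Pard6g, a polarity complex gene (-1.67 ± 0.16, adjusted p = 0.000113), St8sia6, a sialyltransferase gene (-1.62 ± 0.23, adjusted p = 0.00232), Lox, the collagen and elastin crosslinking enzyme gene (-1.47 ± 0.26, adjusted p = 0.0103), and Tmem178 (-1.38 ± 0.17, adjusted p = 0.000691) fell as well. Between 1 and 10 CPM large falls besides that of Gkn3 were those of Atp2b2 (-5.14 ± 0.83), a calcium pump gene, Apba2 (-3.31 ± 0.78) and Adra2c (-3.03 ± 0.75), an adrenoceptor gene. Of these genes, Adra2c lost its call under 9 of 14 alternatives, among them with any 1 pair left out, Apba2 and Dsg2 under 7, Bpifb5 under 6 and Car2 under 3. The calls of Nefh, Ggt5 and Atp2b2 were lost under 2, those of C1s1, Oit1, Gper1, St8sia6 and Lox (without pair 3) under 1, and those of Serpina1e, Slc45a3, Pard6g and Tmem178 under none.

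The same contrast of TdTomato+ over TdTomato- cells was available for hearts and lungs at postnatal day 1 (P1) and for hearts and muscles at 6 weeks (6W), all with the same alleles and tamoxifen. The labels tag 4 of the 6W heart libraries as muscle while naming them as heart, and they were taken as heart. In a joint model of 46 libraries, which left out P1 heart pair 1, the P6 muscle effect differed from the mean of the other 4 effects for 123 of 15557 genes (0.791%), 70 above (0.45%) and 53 below (0.341%). This count depended on the P1 heart. With its pair 1 included, 3 genes were called above and 0 below (231 above and 136 below at an unadjusted p below 0.05). DESeq2 on the 46 libraries called 159 above and 129 below. With the P1 heart left out wholly 258 genes were called (1.67%), 160 above (1.04%) and 98 below (0.636%), of which 103 were among the 123. Without the pair term 9 genes were called, and with any 1 of the P6 pairs left out 61 to 72. For 1037 genes, Glycam1 and Fut7 among them, this difference had no usable standard error.

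Venule genes divided the combinations. In the joint model Ubd had a log2 fold change of 4.22 ± 0.40 in P6 muscle, -0.82 ± 0.40 in 6W muscle, 3.59 ± 0.44 in P1 lung, -1.43 ± 1.33 in P1 heart and -1.83 ± 1.02 in 6W heart. Its P6 muscle effect lay 4.34 ± 0.99 above the mean of the others (adjusted p = 0.0485), a call lost with any 1 of the P6 pairs left out (adjusted p 0.0569 to 0.0842). Glycam1 stood at 4.16 ± 0.63 in P6 muscle, -1.26 ± 0.78 in 6W muscle and 5.60 ± 0.93 in P1 lung. Lrg1 was positive in all combinations save the P1 heart (1.91 ± 0.24 in P6 muscle, 1.58 ± 0.26 in 6W muscle, -2.43 ± 0.42 in P1 heart), and its difference from the other effects, 1.53 ± 0.28 (adjusted p = 0.00702), shrank to 0.59 ± 0.19 (adjusted p = 0.151) without the P1 heart. Plvap did likewise, with 1.09 ± 0.23 (adjusted p = 0.0225) against 0.09 ± 0.26 (adjusted p = 0.986) without the P1 heart, and its call was also lost with any 1 of the P6 pairs left out (adjusted p 0.0518 to 0.0879). Car4 was higher in P6 muscle (0.73 ± 0.10), against -0.40 ± 0.11 in 6W muscle and -1.72 ± 0.10 in P1 lung. Its difference from the mean of the others was 1.16 ± 0.11 (adjusted p = 3.33e-06) and grew to 1.45 ± 0.11 without the P1 heart. The P1 heart effect of Car4 thus lay closer to that of P6 muscle than the mean of the other 3 effects did. Lower effects in P6 muscle were those of Slc45a3 (-1.80 ± 0.36, adjusted p = 0.0107) and Fgl2 (-1.39 ± 0.33, adjusted p = 0.0485). In P1 heart both effects were more negative (-4.31 ± 0.40 and -3.21 ± 0.38), and in P1 lung, 6W heart and 6W muscle they were between -0.23 and 0.33. The Slc45a3 call was lost without pair 2 (adjusted p = 0.0569) and the Fgl2 call with any 1 of the P6 pairs left out (adjusted p 0.102 to 0.195).

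**Figure D5:**
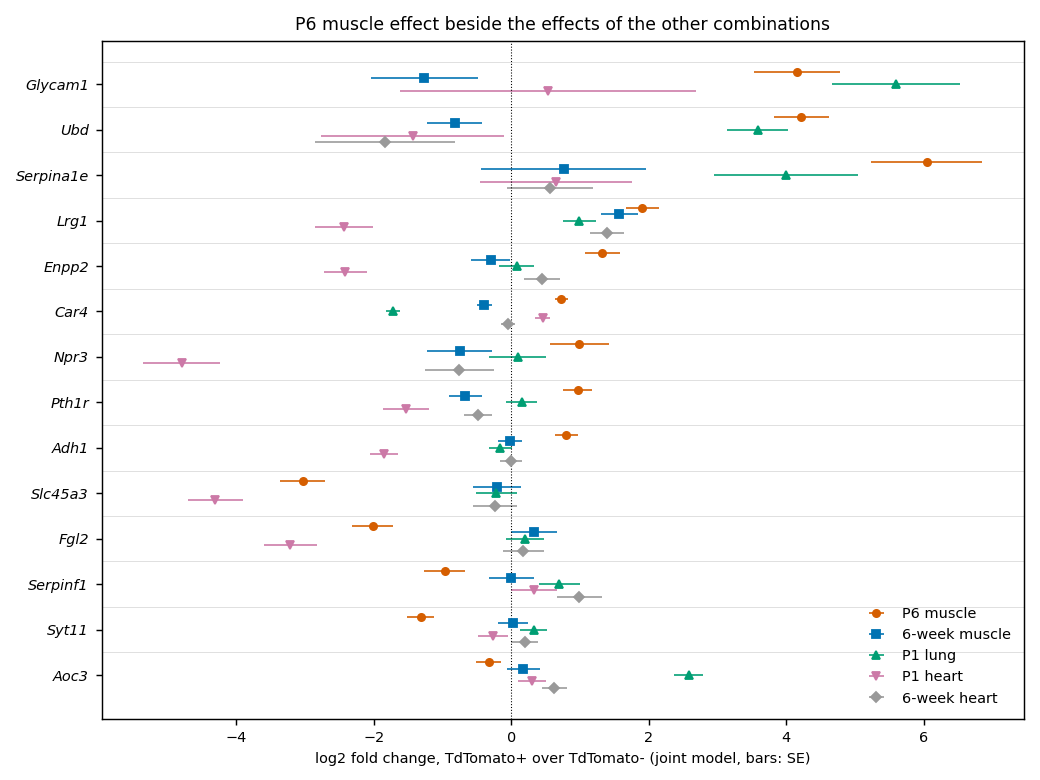
Log2 fold changes of TdTomato+ over TdTomato- cells in the joint model (x axis, bars are SE) for 14 genes (rows) in P6 muscle and the other 4 combinations of tissue and age. Values without a usable standard error are left out. Ubd and Glycam1 were high in P6 muscle and P1 lung, and Slc45a3 and Fgl2 low in P6 muscle and P1 heart.

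Within muscle, the P6 effect could be set against the 6W effect (5 and 4 pairs, sequenced in separate runs). A fit of these 18 libraries alone, chosen after the results above were seen, called 785 of 14077 genes (5.58%), 516 above (3.67%) and 269 below (1.91%) in P6 muscle. Each effect is a difference within a run. Age and sequencing run still cannot be told apart, for levels or for the difference between the effects. Several venule genes differed. The P6 effect exceeded the 6W effect by 5.00 ± 0.30 for Ubd (adjusted p = 2.69e-06), 5.41 ± 1.04 for Glycam1 (adjusted p = 0.023) and 3.01 ± 0.43 for Madcam1 (adjusted p = 0.00349), while Chst4 (2.65 ± 1.42, adjusted p = 0.336) and Fut7 (3.52 ± 1.32, adjusted p = 0.163) did not pass. Lrg1 (0.35 ± 0.24, adjusted p = 0.474) and Plvap (-0.51 ± 0.15, adjusted p = 0.0619) did not differ past the test. Enpp2 was above by 1.64 ± 0.20 (adjusted p = 0.000449) and Car4 by 1.14 ± 0.12 (adjusted p = 0.000162). The P6 effect was below the 6W effect for Mmrn1 (-2.90 ± 0.53, adjusted p = 0.0136), Fgl2 (-2.33 ± 0.33, adjusted p = 0.00192) and Dtx1 (-3.31 ± 0.44, adjusted p = 0.000999). In the joint model, the differences of Madcam1 (0.60 ± 0.52, adjusted p = 0.92), Mmrn1 (-1.12 ± 0.48, adjusted p = 0.514) and Dtx1 (-1.73 ± 0.53, adjusted p = 0.189) from the other 4 effects did not pass. With the P1 heart left out, those of Mmrn1 (adjusted p = 0.0109) and Dtx1 (adjusted p = 0.00139) passed and that of Madcam1 (adjusted p = 0.957) did not. The fall of the arterial gene Gja5 was smaller at P6 (-1.66 ± 0.17) than at 6W (-2.57 ± 0.20), with a difference of 0.92 ± 0.17 (adjusted p = 0.00756). Against the mean of the other 4 effects its difference had the other sign (-0.82 ± 0.19, adjusted p = 0.0376), a call lost with any 1 of P6 pairs 1 to 4 left out (adjusted p 0.107 to 0.159) and with the P1 heart left out (-0.62 ± 0.19, adjusted p = 0.137). Abcg2 itself differed by 0.14 ± 0.09 (adjusted p = 0.397).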

How the data were processed

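Values were the authors' deposited gene counts of 48 libraries, made with STAR, featureCounts and edgeR against mm10, per the submitters' processing notes, with versions not given in the sources used here. Per the labels' protocols, poly(A) RNA and a TruSeq RNA Access kit were used, while the deposited run sheet names SMART-Seq v4 and Nextera XT with 1 ng of RNA. No source used here gives the strand setting of the counting, so antisense and overlapping genes cannot be told apart. The authors' log2 fold changes and false discovery rates (a q-value) come from the deposited table, and the RNA integrity number, a score, from the deposited run sheet. The table lists genes with a total of at least 56 counts over all libraries.

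Counts were fitted with edgeR 4.0.16 (R 4.3.3; TMM, filterByExpr, robust quasi-likelihood, pair as a block), with Benjamini-Hochberg adjustment over all genes tested; 2323 genes were left out for low counts. Contrasts with other tissues used 1 model of 46 libraries, without pair 1 of the P1 heart, for which the labels record a failed quality control. Alternatives were DESeq2 1.42.0, other scalings and filters, covariates, no pair term, and each pair left out. Deviations of same-numbered libraries correlated by 0.359, 0.162, 0.176, 0.219 and -0.0282 in pairs 1 to 5 over 9118 genes. Pair 5 showed no such correlation. A label speaks of a matched sample for a P1 heart pair but none does for P6 muscle, so the pairing is not established here. The pair term was used because the comparison was set up that way. Replicates differed by more than sampling noise (chi-square per degree of freedom of at least 14.3). Intervals of counting error are not given, since the spread between libraries is larger.

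Genes named were Abcg2, the 12 largest rises and falls at a mean of 10 CPM or more and the 5 largest at 1 to 10 CPM among genes called with the same sign in all pairs, up to 4 called genes of each list by p, the 8 highest and 8 lowest differences from the other effects, and list members given as values; 1 gene that this rule names is not reported here. Members and lists were chosen with earlier results of these data known.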

Additional observations from a re-analysis of the deposited data

Results flagged for a closer look

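In 12 of 250 groups of 5 libraries over the 125 named genes, 1 library stood apart from the other 4 by Dixon's test at the 95% level, where chance flags about 1 in 20 groups. Among TdTomato+ libraries, the lowest stood apart for Tmem100 (library 1, 6.34 CPM), Dkk2 (library 2, 0.424 CPM), Irf1 (library 3, 155 CPM), Cdh13 (library 3, 790.5 CPM) and Slc38a4 (library 4, 3.01 CPM), and the highest for Kif20a (51.0 CPM) and Enpp2 (289 CPM), both in library 3. Among TdTomato- libraries, the highest stood apart for Cxcl10 (library 1, 7.01 CPM), Ndrg1 (library 3, 425 CPM) and Serpinf1 (library 4, 69.8 CPM), and the lowest for Sema3d (library 2, 7.49 CPM) and Tcf7 (library 4, 8.03 CPM).

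The 16 genes given here were named for their difference from the other effects, and they are not all the named genes that passed. Plvap (adjusted p = 0.0225), Gja5 (0.0376), Vegfc (0.0175) and Igfbp3 (0.0336) were among others that passed the same test. For the 16, the P6 muscle effect differed from the mean of the other 4 effects, by the test of the difference in the joint model. It lay above by 4.55 for Serpina1e, 4.34 for Ubd, 2.54 for Npr3, the natriuretic peptide clearance receptor gene, 1.87 for Enpp2, 1.60 for Pth1r, the parathyroid hormone receptor gene, 1.53 for Lrg1, 1.31 for Adh1, an alcohol dehydrogenase gene, and 1.16 for Car4 on the log2 scale. The differences were negative for Slc45a3 (-1.80), Col28a1 (-1.66), Serpinf1 (-1.48), Fgl2 (-1.39), Syt11 (-1.39), Pard6g (-1.30), Rarres1 (-1.26) and Aoc3 (-1.25). With pair 1 of the P1 heart included, 15 of the 16 no longer passed. With P6 pairs left out in turn, the calls of Ubd, Fgl2 and Serpinf1 (adjusted p 0.0778 to 0.138) were lost each time, that of Rarres1 without pair 1, 2, 3 or 4 (up to 0.110), of Serpina1e without pair 2 or 3, of Npr3 without pair 1 or 2, of Slc45a3 without pair 2 and of Col28a1 without pair 5. Npr3 (adjusted p = 0.226) and Lrg1 (adjusted p = 0.151) did not pass with the P1 heart left out, nor Lrg1 (adjusted p = 0.474) and Aoc3 (-0.47 ± 0.24, adjusted p = 0.304) within muscle. Exons of Npr3 overlap those of Gm5144.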

How the results depend on the processing

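No named gene of the P6 comparison changed direction under any alternative run. The difference from the other effects did so within muscle for Gja5 and Plvap, as given above. For Igfbp3 it went from -1.08 ± 0.24 to 0.02 ± 0.15 within muscle. By the replicate numbers, pairs 1 and 4 alone correlated best with their own partner both ways. The 471 calls (265 higher and 206 lower in TdTomato+ cells) became 297 (166 and 131) with RNA integrity as a covariate and 124 (67 and 57) with the leukocyte marker level. They became 807 (436 and 371) with DESeq2 and 154 (100 and 54) in the joint model. Without the replicate block 344 genes were called (189 and 155). Leaving out each pair gave 300 to 349 calls (173 to 212 higher and 127 to 153 lower), fewest without pair 2, which leaves fewer samples. Other scalings and filters gave 460 to 505 calls. The 123 calls of the difference from the other 4 effects (70 above and 53 below) became 9 (5 and 4) without the replicate block, 3 (3 and 0) with P1 heart pair 1 included and 288 (159 and 129) with DESeq2. Leaving out each P6 pair gave 61 to 72 (38 to 44 above and 23 to 31 below). In settings chosen after seeing the data, leaving out the P1 heart gave 258 (160 and 98) and muscle alone 785 (516 and 269). The cause of these changes was not tested. Calls at a few CPM rest on few counts, and precision there is limited by depth.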

Other observations

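The genes given here lie outside the lists and were picked singly after their values were seen, so they stand for no group. Apoe, the apolipoprotein E gene, was at 401, 410.4, 425, 489 and 404 CPM in TdTomato+ libraries and 226, 213, 196, 228 and 179 CPM in TdTomato- libraries (1.03 ± 0.06, adjusted p = 4.19e-06). Pltp, the phospholipid transfer protein gene (0.63 ± 0.05), Plin2, a lipid droplet gene (0.44 ± 0.06), and the lipase genes Mgll (0.39 ± 0.06) and Lipe (0.45 ± 0.07) passed the test as well. Rdh10, a retinol dehydrogenase gene, averaged 25.4 ± 3.7 CPM in TdTomato+ and 14.3 ± 2.5 CPM in TdTomato- cells (0.84 ± 0.12, adjusted p = 0.00186), and Dhrs3 (0.47 ± 0.07, adjusted p = 0.00223), whose enzyme turns retinal back to retinol, rose too.

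Other genes picked in the same manner were lower. Fn1, the fibronectin gene, averaged 166 ± 28 CPM in TdTomato+ and 284 ± 20 CPM in TdTomato- cells (-0.78 ± 0.08, adjusted p = 0.000163). Fbln2, the fibulin 2 gene (-0.40 ± 0.04, adjusted p = 0.000268), Htra1, a secreted protease gene (-0.90 ± 0.12, adjusted p = 0.0014), and Cd44, the hyaluronan receptor gene (-0.84 ± 0.06, adjusted p = 2.3e-05), fell too. Stab2, a scavenger receptor gene for hyaluronan, was at 9.45, 15.6, 10.7, 8.04 and 6.93 CPM in TdTomato+ and 14.9, 28.14, 27.4, 14.8 and 18.7 CPM in TdTomato- libraries (-1.03 ± 0.15, adjusted p = 0.00244).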
